A study of Mus musculus with 18 samples.

Results

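Cyclins, cyclin-dependent kinases (CDKs) and their inhibitors, replication licensing factors, replicative DNA polymerases, centromere proteins and mitotic kinases were followed in Lin-Kit+ bone marrow cells of mice with JAK2V617F-induced myeloproliferative neoplasm (MPN). The genes were chosen by symbol, with earlier results of these data known. Probe sets with 1 annotated symbol were taken where that symbol began with the name of a cyclin A, B, D or E gene, of the Cdk, Cdkn, Cdc, Mcm, Cenp, Orc, Aurk, Bub, Plk, E2f or Rfc genes, or of the DNA polymerase alpha, delta and epsilon genes. This gave 133 genes of the 9636 with a single symbol, on 134 of the 10335 probe sets in the deposited data. All probe sets, below, means these 10335. A gene counts as measured where they include a probe set with its symbol alone, whatever else the array may hold. The 9651 with 1 symbol leave most genes a single probe set, so a dim signal may be that of the probe set alone. Cdk13 had 2 probe sets, and the one with the higher mean stands for it.

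Affymetrix mouse arrays were hybridized with RNA from bone marrow of Balb/c mice that had MPN after transplantation of transduced donor cells. The transduced cells carried JAK2V617F from a retroviral vector together with GFP, so the mutant was not expressed from its own locus. Marrow was pooled from several mice in each of 3 independent experiments and cultured for 16 h with IL-3 at 50 ng/mL and SCF at 100 ng/mL in all groups. Lin-Kit+ cells were then sorted into GFP+ (JAK2V617F+) and GFP- (JAK2V617F-) cells of the same cultures. The 6 groups were JAK2V617F+ cells with a TNFR1 blocking antibody (BA), with a TNFR2 BA or untreated, and JAK2V617F- cells with TNFR1 BA, with TNFR2 BA or untreated, each BA at 10 μg/mL. Each group had 3 arrays, but replicate 3 of untreated JAK2V617F+ cells was excluded by the study, which left 2 there and 17 in all.

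Progress through the cell cycle is driven by CDKs, which are active only when bound to a cyclin. D-type cyclins with Cdk4 or Cdk6 carry growth factor signals into G1, cyclins E and A with Cdk2 start and sustain S phase, and cyclins A and B with Cdk1 bring the cell into mitosis. Inhibitors of the Ink4 and Cip/Kip families hold these kinases back. The origin recognition complex (ORC), Cdc6 and the MCM helicase license replication origins in G1, E2F factors switch on many of these genes, and Aurora, Polo-like and Bub kinases and the centromere proteins (CENP) later segregate the chromosomes. In hematopoietic progenitors, JAK2 relays signals of cytokine receptors, and cytokine signals in turn raise D-type cyclins.

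The deposited log2 signals ran from 2.22, the lowest value on every array, to 15.49. Array medians lay between 7.41 and 7.75, and the excluded array had a median of 6.05. The 9 measured progenitor markers averaged 8.56 to 9.62 per JAK2V617F+ array and 8.01 to 9.79 per JAK2V617F- array. Kit had a mean of 7.32 in JAK2V617F+ cells and 7.02 in JAK2V617F- cells, while Flt3 and Meis1 were dim, Flt3 with 3.44 in JAK2V617F+ cells and 5.57 in JAK2V617F- cells. Markers of other lineages were averaged in the same way. The 9 measured mast cell and basophil markers, all with a higher mean in JAK2V617F+ cells, averaged 11.23 to 12.43 per JAK2V617F+ array and 6.91 to 8.82 per JAK2V617F- array, and the mast cell tryptase gene Tpsab1 had means of 12.26 in JAK2V617F+ cells and 3.34 in JAK2V617F- cells. The 9 erythroid markers, again all higher in mean in JAK2V617F+ cells, averaged 8.39 to 10.69 per JAK2V617F+ array and 5.72 to 8.12 per JAK2V617F- array. Lower means in JAK2V617F+ cells were found for the 5 B cell markers, at 2.55 to 5.16 per JAK2V617F+ array and 2.4 to 6.92 per JAK2V617F- array. The list means were also lower in JAK2V617F+ cells for 7 neutrophil markers (12.46 in JAK2V617F+ cells, 13.21 in JAK2V617F- cells), 2 T and NK cell markers (6.23 in JAK2V617F+ cells, 7.08 in JAK2V617F- cells) and 8 monocyte, macrophage and dendritic cell markers (6.33 in JAK2V617F+ cells, 6.77 in JAK2V617F- cells), and the arrays of both genotypes overlapped in each. Elane and Prtn3 of the neutrophil list, and Adgre1, Cd14 and Cd68 of the monocyte list, had higher means in JAK2V617F+ cells. Every comparison of the genotypes below therefore sets cells against each other that differ in mast cell and erythroid markers too, and the part of the markers in any result was not tested. In bulk samples, fewer cells of a type and less RNA per cell cannot be told apart.

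Differences were estimated with limma on the 6 group means of the 17 arrays. P-values were adjusted by Benjamini-Hochberg over all 10335 probe sets, and an adjusted p under 0.05 is a call. The first comparison asks what the mutant cells express relative to their JAK2V617F- neighbours, as the mean of the 3 within-treatment differences. No member was called (0 of 133), where 37 probe sets of all were, which is 0.358%. Unadjusted p was under 0.05 for 9 members, or 6.77% of the members, against 10.3% of all probe sets. Of these, 4 had a higher mean in JAK2V617F+ cells (5.21% of all probe sets did) and 5 a lower one (5.08% of all probe sets). The methods' t-test, paired over replicate numbers, gave 5 members with an unadjusted p under 0.05 (9.39% of all probe sets) and 0 after adjustment (0.106% of all probe sets). It used 8 same-numbered pairs from 3 experiments, so the pairs are not independent. The study's methods pair cells of single mice, whereas these arrays hold pooled marrow. The differences of the members ran from -3.42 to 1.59 with a median of 0.04, beside a median of 0.00 over all probe sets. No member separated the genotypes without overlap of arrays, as 0.242% of all probe sets did.

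The mean level of the members differed between the genotypes by less than the spread between arrays. Their mean log2 signal per array was 8.40 ± 0.25 in JAK2V617F+ cells (SD, n = 8) and 8.44 ± 0.10 in JAK2V617F- cells (SD, n = 9). It ranged from 8.08 to 8.70 in JAK2V617F+ cells and from 8.23 to 8.56 in JAK2V617F- cells, so the range of the JAK2V617F- arrays lay within that of the JAK2V617F+ arrays. Deviations of members from their own means had a mean pairwise correlation of 0.017 over the 17 arrays, beside 0.004 over all probe sets, where all points share the arrays and their amplification. By family, the median differences quoted below kept their sign after quantile normalization and with all 18 arrays, except those of the MCM genes, at 0.05 and at -0.01 after quantile normalization, and of Cdc42 with its partners, at -0.01 and at 0.02 with all 18 arrays.

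**Figure D1:**
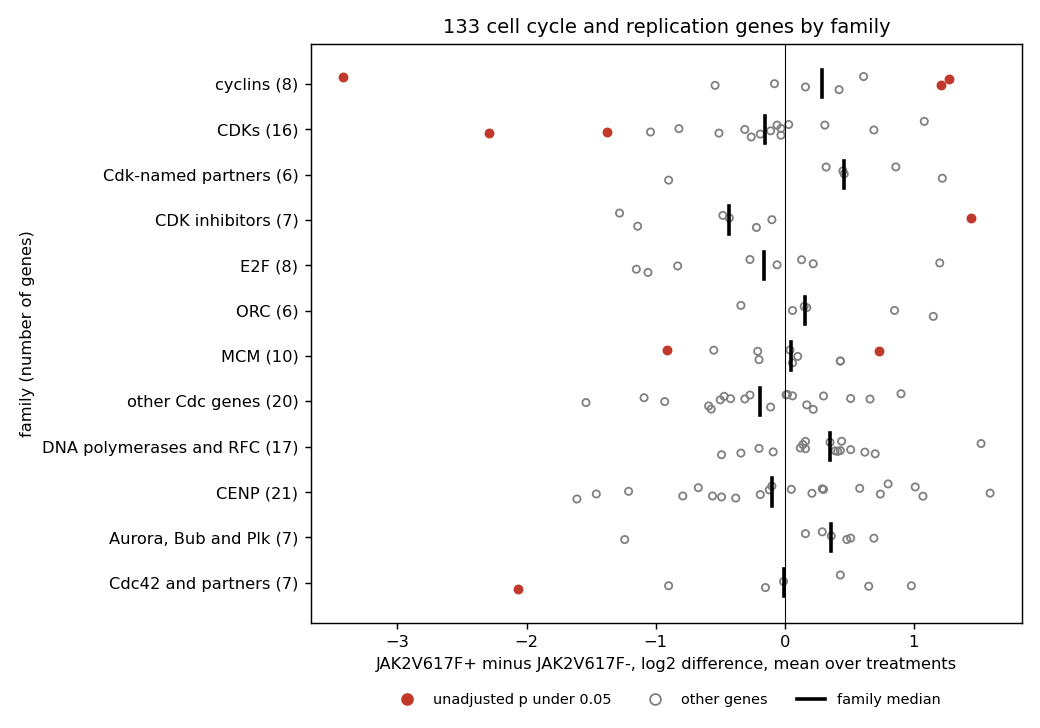
Each point is 1 of the 133 genes, placed by its log2 difference, JAK2V617F+ minus JAK2V617F-, as a mean over treatments (horizontal axis), in rows by family with the number of genes. Filled points are the 9 genes with an unadjusted p under 0.05, and bars are family medians; the points of most families lie on both sides of 0, and Ccnd1 at -3.42 is farthest from it.

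Where a member was measured tightly, the interval bounds its difference. The 95% confidence interval (CI) lay within 1 log2 unit of 0 for 20 members, or 15% of them, against 9.91% of all probe sets. Among these were Cdk1, the kinase of mitotic entry, at -0.03 (SE 0.26, 95% CI -0.57 to 0.52), its S and G2 phase partner cyclin A2 (Ccna2) at -0.08 (SE 0.18, 95% CI -0.45 to 0.29), and the helicase subunit Mcm4 at 0.06 (SE 0.2, 95% CI -0.36 to 0.48). The D-cyclin kinases Cdk4 and Cdk6 were bounded in the same way, at -0.19 (SE 0.26, 95% CI -0.74 to 0.36) and at -0.06 (SE 0.22, 95% CI -0.52 to 0.4). Cdc6, which loads the MCM helicase, stood at 0.3 (SE 0.25, 95% CI -0.21 to 0.82), and the cyclin gene Ccnd2 at 0.16 (SE 0.39, 95% CI -0.66 to 0.99). The remaining 13 were Bub1b, Cdc123, Cdc16, Cdc42se1, Cdc5l, Cdk2ap1, Cenph, Cenpx, E2f6, Mcm10, Mcm6, Poldip3 and Rfc5. For the other members a difference of 1 log2 unit or more could not be set aside at this precision.

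**Figure D2:**
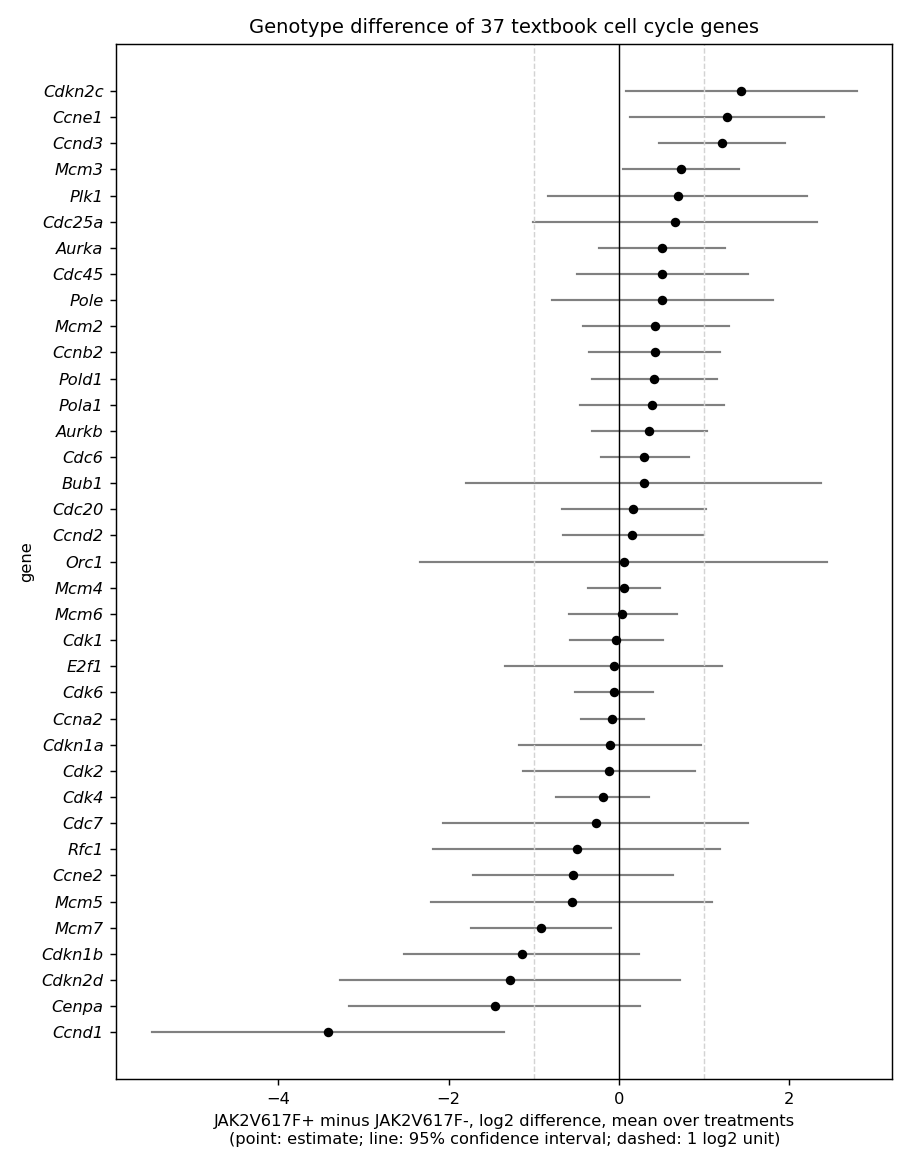
The 37 measured genes of a textbook set of cell cycle regulators are listed from the highest to the lowest log2 difference, JAK2V617F+ minus JAK2V617F-, as a mean over treatments (horizontal axis); points are estimates and lines 95% confidence intervals. The interval of Ccna2 runs from -0.45 to 0.29, whereas that of Ccnd1 runs from -5.49 to -1.35 and that of Orc1 from -2.33 to 2.45.

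Among the D-type cyclins, which couple growth factor signals to G1, Ccnd1 and Ccnd3 differed in sign. Ccnd1 had log2 signals of 4.58, 8.0 and 4.14 with TNFR1 BA, 4.14, 6.63 and 3.67 with TNFR2 BA, and 5.05 and 4.48 untreated in JAK2V617F+ cells. In JAK2V617F- cells the signals were 10.46, 11.24 and 4.69 with TNFR1 BA, 9.34, 8.77 and 9.09 with TNFR2 BA, and 10.02, 7.07 and 5.57 untreated. The signal was at most 5.05 on 6 of 8 JAK2V617F+ arrays and at least 7.07 on 7 of 9 JAK2V617F- arrays, and the other JAK2V617F- arrays were replicate 3 with TNFR1 BA and replicate 3 untreated. The difference was -3.42 (SE 0.98, 95% CI -5.49 to -1.35), and Ccnd1 was lower in JAK2V617F+ cells in 8 of 8 same-numbered pairs, but the adjusted p was 0.199 (limma). Ccnd1 and Ccnd3 had the smallest p of the members in this comparison, and the pairs come from the same arrays. How many of all probe sets reach such pair counts was not determined. Without replicate 3 of JAK2V617F- cells with TNFR1 BA the difference was -4.11 with an adjusted p of 0.0394, so this array decided whether Ccnd1 was called. Within treatments the difference in Ccnd1 was -3.22 with TNFR1 BA, -4.25 with TNFR2 BA and -2.79 untreated.

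Ccnd3, the D-type cyclin best known from lymphoid and erythroid cells, lay on the other side of 0. Its signals were 10.31, 10.64 and 11.14 with TNFR1 BA, 12.14, 10.34 and 11.65 with TNFR2 BA, and 11.05 and 12.06 untreated in JAK2V617F+ cells. In JAK2V617F- cells they were 10.27, 9.49 and 9.18 with TNFR1 BA, 10.04, 9.96 and 11.19 with TNFR2 BA, and 9.99, 9.31 and 10.56 untreated. All JAK2V617F+ arrays stood at 10.31 or above, and 2 of the 9 JAK2V617F- arrays, at 10.56 and 11.19, lay inside that range. The difference was 1.21 (SE 0.35, 95% CI 0.47 to 1.95), higher in JAK2V617F+ cells in 8 of 8 pairs, with an adjusted p of 0.202 (limma). Ccnd2, in contrast, covered 10.32 to 12.34 (median 11.21) in JAK2V617F+ cells and 9.4 to 12.48 (median 10.99) in JAK2V617F- cells, and each genotype was higher in 4 of 8 pairs.

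**Figure D3:**
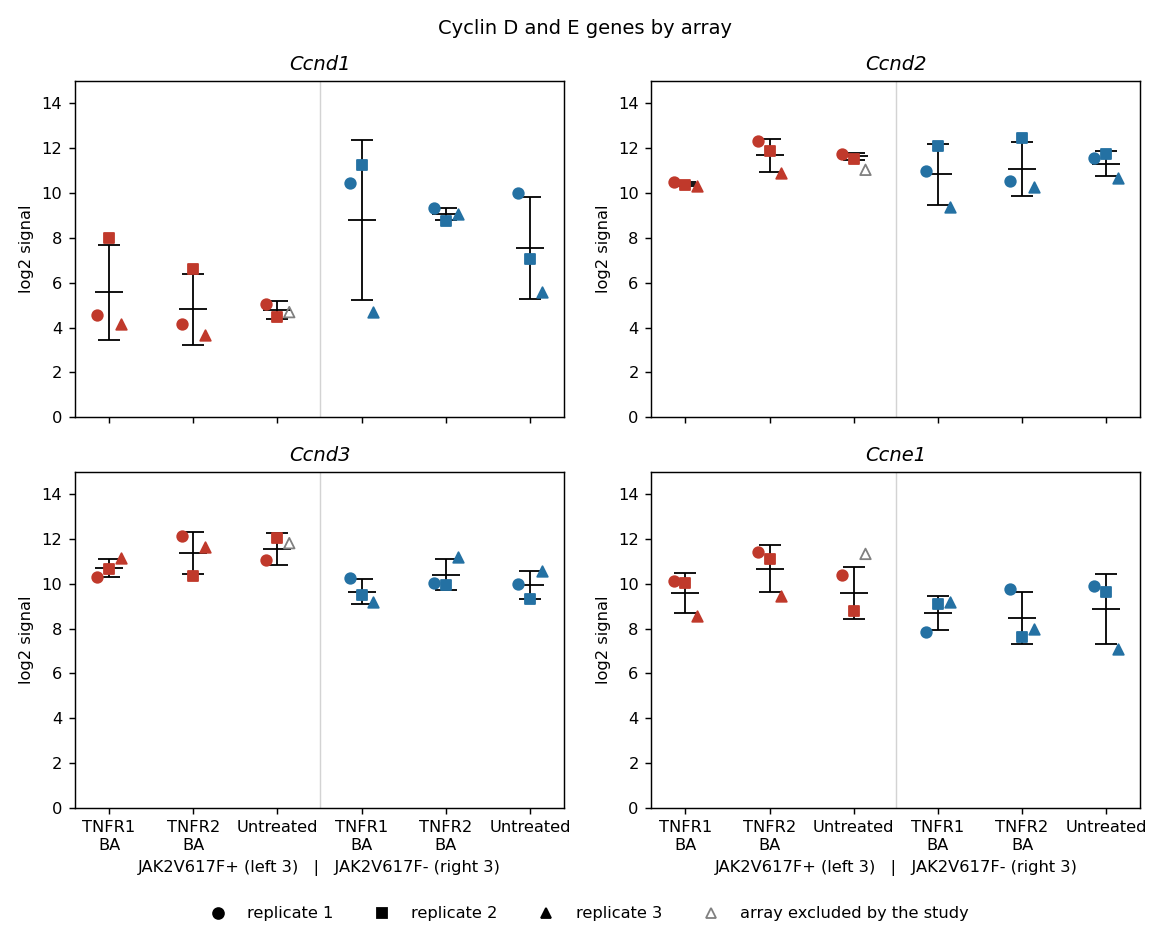
Log2 signals (vertical axis) of Ccnd1, Ccnd2, Ccnd3 and Ccne1 are shown for each array by group, JAK2V617F+ in red on the left and JAK2V617F- in blue on the right, with symbols for the replicate number, horizontal bars for group means and whiskers for the SD; the open grey triangle is the excluded array. Ccnd1 is lower and Ccnd3 higher in JAK2V617F+ cells in 8 of 8 same-numbered pairs, and the arrays of both genotypes overlap for each gene.

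Of the E-type cyclins, which activate Cdk2 at the start of S phase, Ccne1 had signals of 10.14, 10.05 and 8.58 with TNFR1 BA, 11.4, 11.12 and 9.47 with TNFR2 BA, and 10.4 and 8.76 untreated in JAK2V617F+ cells. JAK2V617F- cells had 7.84, 9.09 and 9.19 with TNFR1 BA, 9.77, 7.6 and 8.0 with TNFR2 BA, and 9.9, 9.64 and 7.07 untreated. The signal was 10.05 or above on 5 of 8 JAK2V617F+ arrays, while the highest JAK2V617F- array had 9.90, and the other JAK2V617F+ arrays lay inside the JAK2V617F- range. The difference for Ccne1 was 1.27 (SE 0.54, 95% CI 0.13 to 2.41), with an adjusted p of 0.43 (limma), and Ccne1 was higher in JAK2V617F+ cells in 6 of 8 pairs. Its paralog Ccne2 differed by -0.54 (SE 0.56, 95% CI -1.71 to 0.64). The mitotic cyclin Ccnb2 spanned 9.7 to 12.29 (median 11.8) in JAK2V617F+ cells and 9.99 to 11.95 (median 10.96) in JAK2V617F- cells, a difference of 0.42 with a CI on both sides of 0. Ccnb1ip1, an E3 ligase that carries a cyclin in its name only as a binding partner, had arrays of the same group more than 5 log2 units apart.

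Of the 16 CDK genes 4 had a positive difference (50% of all probe sets did), and the median was -0.15. Cdk2, the partner of cyclins E and A, differed by -0.11 (SE 0.48, 95% CI -1.12 to 0.9). Cdk7, which activates other CDKs and is part of transcription factor TFIIH, had signals of 3.88, 9.84 and 10.5 with TNFR1 BA, 4.97, 3.88 and 7.25 with TNFR2 BA, and 7.79 and 3.88 untreated in JAK2V617F+ cells. JAK2V617F- cells had 10.27, 10.78 and 6.91 with TNFR1 BA, 9.01, 10.12 and 11.77 with TNFR2 BA, and 7.1, 7.61 and 4.86 untreated. Cdk7 thus covered most of its range in both genotypes, and the repeated value of 3.88 marked the lower end in JAK2V617F+ cells. Its difference was -2.29 (SE 1.0, 95% CI -4.39 to -0.18), with an adjusted p of 0.439 (limma). The adjusted p of Cdk17, a PCTAIRE kinase, was 0.462 at a difference of -1.38 (SE 0.63, 95% CI -2.7 to -0.06). Each genotype was higher in 4 of 8 pairs for Cdk17, and without untreated JAK2V617F+ replicate 2 the difference was -0.5. The transcriptional kinase gene Cdk9 lay at the lowest value on 10 of the 17 arrays.

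Of the 7 genes named for CDK inhibitors 6 had a negative difference, where 50% of all probe sets had a positive one, and the median was -0.43. With all 18 arrays 4 of the 7 were negative and the median was -0.31. They include Cdkn2aip and Cdkn2aipnl, a partner of a Cdkn2a product and its paralog. The gene with a positive difference over the 17 arrays was Cdkn2c, an Ink4 inhibitor of Cdk4 and Cdk6. Its signals spanned 6.6 to 9.89 (median 7.61) in JAK2V617F+ cells and 5.25 to 7.81 (median 5.66) in JAK2V617F- cells, higher in JAK2V617F+ cells in 7 of 8 pairs. The upper JAK2V617F- arrays overlapped the lower JAK2V617F+ ones. The difference for Cdkn2c was 1.44 (SE 0.65, 95% CI 0.08 to 2.8), with an adjusted p of 0.458 (limma). Within treatments it was 0.81 with TNFR1 BA, 2.75 with TNFR2 BA and 0.75 untreated. Cdkn2d, another Ink4 gene, differed by -1.28 (SE 0.95, 95% CI -3.27 to 0.72), and 2 JAK2V617F- arrays with TNFR1 BA stood at 10.79 and 10.83. The Cip/Kip genes Cdkn1a and Cdkn1b differed by -0.1 (SE 0.51, 95% CI -1.17 to 0.97) and by -1.14 (SE 0.66, 95% CI -2.52 to 0.24). Cdkn3, a phosphatase that removes the activating phosphate of Cdk2, differed by -0.22 as a mean over treatments and by -3.42 in untreated cells, although it was higher in JAK2V617F+ cells in 7 of 8 pairs. Without untreated JAK2V617F+ replicate 2, Cdkn3 differed by 0.63 as a mean over treatments and by -0.86 in untreated cells, and Cdkn1b by -0.31 as a mean over treatments.

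The E2F genes, whose products switch S phase genes on or off, had a median of -0.17. Of the 8 members 0 had an unadjusted p under 0.05, against 10.3% of all probe sets. E2f1, an activator, spanned 7.36 to 12.3 (median 9.61) in JAK2V617F+ cells and 8.49 to 11.4 (median 9.67) in JAK2V617F- cells, a difference of -0.06 (SE 0.61, 95% CI -1.34 to 1.21). E2f4, mainly a repressor, stood at 1.2 (SE 0.68, 95% CI -0.23 to 2.63), and the activators E2f2 and E2f3 at -0.83 and -1.06. E2f6 was the only E2F gene whose CI lay within 1 log2 unit of 0, at 0.22 (SE 0.34, 95% CI -0.5 to 0.94). E2f5 was at the lowest value on 6 of the 17 arrays.

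The MCM genes, of which Mcm2 to Mcm7 form the replicative helicase, had the lowest median SD within groups of the families, 0.74, against 1.27 for all members and 1.45 for all probe sets. Mcm3 and Mcm7 differed in sign. Mcm3 spanned 10.55 to 12.88 (median 11.26) in JAK2V617F+ cells and 9.98 to 11.76 (median 10.73) in JAK2V617F- cells. Mcm7 spanned 8.33 to 11.04 (median 9.43) in JAK2V617F+ cells and 9.22 to 11.31 (median 10.63) in JAK2V617F- cells. Mcm3 was higher in JAK2V617F+ cells in 7 of 8 pairs and Mcm7 lower in 7 of 8, with overlap of arrays in both. Their differences were 0.73 (SE 0.32, 95% CI 0.05 to 1.41) for Mcm3 and -0.91 (SE 0.39, 95% CI -1.74 to -0.09) for Mcm7, with an adjusted p of 0.449 for Mcm3 and 0.43 for Mcm7 (limma). Of the other subunits of the ring, Mcm6 stood at 0.04 (SE 0.3, 95% CI -0.59 to 0.68) and Mcm2 at 0.43 (SE 0.41, 95% CI -0.42 to 1.29), while Mcm5, a dim probe set, stood at -0.55 (SE 0.78, 95% CI -2.21 to 1.1).

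Promoters of a few members are shown with their E2F words. The symbols do not name this feature, but E2F factors switch on many of these genes, so the choice was not independent of it. RefSeq start sites of GRCm38.p6 gave windows of 300 bases, 250 before and 50 after the start, for 115 of the 133 members. An E2F word (TTTCCCGC, TTTCGCGC, TTTGCCGC or TTTGGCGC, on either strand) occurred in 25 of the 115, or 21.7%, against 5.15% of 7898 genes of the table with a window and 2.6% of all 27025 genes with one. CCAAT, on either strand, was found in 58.3% of the members, 43.2% of the table's genes and 41.1% of all genes. The word TTTGAA of the CHR element was found in 24.3% of the members, 14.1% of the table's genes and 20.2% of all genes. The windows of 3 helicase genes and of Cdk1 follow, 5′ to 3′ on the gene's strand, with these words in capitals, where overlapping words run together.
Mcm3, chr1:20820263-20820562, minus strand: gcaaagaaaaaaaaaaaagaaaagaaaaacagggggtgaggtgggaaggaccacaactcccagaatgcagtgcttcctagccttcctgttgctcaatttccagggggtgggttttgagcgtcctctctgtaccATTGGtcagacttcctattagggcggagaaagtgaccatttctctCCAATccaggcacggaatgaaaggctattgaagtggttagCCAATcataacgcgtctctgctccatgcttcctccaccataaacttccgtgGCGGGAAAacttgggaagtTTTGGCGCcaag
Mcm6, chr1:128359656-128359955, minus strand: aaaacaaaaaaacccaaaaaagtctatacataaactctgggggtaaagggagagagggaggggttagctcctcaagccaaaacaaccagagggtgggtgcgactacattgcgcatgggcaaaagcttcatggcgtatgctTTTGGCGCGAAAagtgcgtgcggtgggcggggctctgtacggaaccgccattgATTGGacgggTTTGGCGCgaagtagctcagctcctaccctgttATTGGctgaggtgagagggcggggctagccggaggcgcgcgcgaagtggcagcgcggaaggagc
Mcm7, chr5:138171834-138172133, minus strand: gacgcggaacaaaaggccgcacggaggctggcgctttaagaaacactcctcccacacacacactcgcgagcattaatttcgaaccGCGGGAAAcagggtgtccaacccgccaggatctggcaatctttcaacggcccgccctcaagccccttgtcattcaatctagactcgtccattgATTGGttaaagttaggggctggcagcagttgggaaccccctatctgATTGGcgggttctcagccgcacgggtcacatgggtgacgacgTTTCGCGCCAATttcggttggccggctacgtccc
Cdk1, chr10:69352863-69353162, minus strand: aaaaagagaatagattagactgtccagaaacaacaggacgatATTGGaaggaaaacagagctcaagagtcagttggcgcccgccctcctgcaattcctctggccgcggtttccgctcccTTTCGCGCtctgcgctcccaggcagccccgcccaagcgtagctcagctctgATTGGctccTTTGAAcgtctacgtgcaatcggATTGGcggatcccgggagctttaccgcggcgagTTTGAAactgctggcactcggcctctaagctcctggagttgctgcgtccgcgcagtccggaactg
The Mcm3 window held 2 E2F words, that of Mcm6 held 3 and the Mcm7 window shown held 2, and the log2 difference between the genotypes was 0.73 for Mcm3, 0.04 for Mcm6 and -0.91 for Mcm7. Mcm7 has a second window, at chr5:138171217-138171516, which held 0 E2F words and 1 CCAAT word. A gene with several windows was counted where any of them held the word. The Cdk1 window held 1 E2F word, 2 CHR words and 3 CCAAT words.

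The members were also counted by E2F word in the comparison of the genotypes. Over all probe sets, 50% had a positive difference and 10.3% an unadjusted p under 0.05. Of the 25 with one, 14 had a positive difference, the median was 0.06 and 2 had an unadjusted p under 0.05. Of the 90 without one, 46 had a positive difference, the median was 0.02 and 5 had an unadjusted p under 0.05. An E2F word was found in 6 of the 14 DNA polymerase and RFC genes with a window and in 5 of the 9 MCM genes. The Ccnd3 windows, on chromosome 17, held none. Whether any of these words is bound in these cells was not measured.

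Upstream of the helicase, Orc1 to Orc6 mark the origins, and they were poorly measured, with a median SD within groups of 1.6. Orc1 had 2.22 to 9.61 (median 4.64) in JAK2V617F+ cells and 2.27 to 8.9 (median 5.91) in JAK2V617F- cells, and its difference was 0.06 (SE 1.14, 95% CI -2.33 to 2.45). Orc2 stood at 0.85 (SE 0.56, 95% CI -0.33 to 2.02) and Orc6 at 0.17 (SE 0.47, 95% CI -0.81 to 1.15). Cdc45, which joins MCM in the active helicase, spanned 7.77 to 9.97 (median 9.3) in JAK2V617F+ cells and 6.73 to 9.23 (median 8.99) in JAK2V617F- cells, a difference of 0.51 (SE 0.48, 95% CI -0.49 to 1.52). Cdc7, the kinase that fires origins, was dim, with a difference of -0.27 (SE 0.85, 95% CI -2.06 to 1.52).

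DNA polymerase and clamp loader (RFC) genes had a positive difference in 13 of 17 (50% of all probe sets) and a median of 0.35. The 17 include Poldip2 and Poldip3, named as interaction partners of polymerase delta and not subunits, both with a positive difference. An unadjusted p under 0.05 was found for 0 of 17, against 10.3% of all probe sets. Pold1, the catalytic subunit of polymerase delta, spanned 11.35 to 13.84 (median 12.93) in JAK2V617F+ cells and 11.41 to 13.3 (median 12.24) in JAK2V617F- cells, a difference of 0.41 (SE 0.35, 95% CI -0.32 to 1.15). Pola1 and Pole, the catalytic subunits of polymerases alpha and epsilon, differed by 0.39 (SE 0.4, 95% CI -0.46 to 1.23) and by 0.51 (SE 0.62, 95% CI -0.78 to 1.81). Rfc2, a clamp loader subunit, stood at 0.43 (SE 0.28, 95% CI -0.15 to 1.01), while the large subunit gene Rfc1 stood at -0.49 (SE 0.8, 95% CI -2.18 to 1.19). Pole2 had the widest spread within groups of any member, with signals of 2.27, 8.7 and 2.24 with TNFR1 BA, 2.24, 10.41 and 2.24 with TNFR2 BA, and 3.9 and 7.77 untreated in JAK2V617F+ cells. It had 2.24, 2.25 and 7.1 with TNFR1 BA, 5.26, 2.24 and 2.45 with TNFR2 BA, and 2.25, 2.24 and 5.87 untreated in JAK2V617F- cells, so most arrays were near the lowest value and single arrays were far above it.

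Among the remaining Cdc genes, 0 of 20 had an unadjusted p under 0.05, against 10.3% of all probe sets. Cdc27, a subunit of the anaphase-promoting complex, spanned 7.36 to 10.52 (median 9.25) in JAK2V617F+ cells and 8.99 to 10.63 (median 9.98) in JAK2V617F- cells, with a difference of -0.93 (SE 0.45, 95% CI -1.87 to 0.02) and an adjusted p of 0.49 (limma). Its fellow subunits Cdc16, Cdc23 and Cdc26 stood at 0.06, -0.59 and -0.11, and the activator Cdc20 at 0.17 (SE 0.4, 95% CI -0.67 to 1.02). The Cdc25 phosphatases, which remove inhibitory phosphates from CDKs, differed by 0.66 (Cdc25a), -0.47 (Cdc25b) and 0.9 (Cdc25c), each with a CI that spanned 0.

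The Aurora, Bub and Polo-like genes were positive in 6 of 7 (50% of all probe sets) with a median of 0.36. An unadjusted p under 0.05 was found for 0 of 7, against 10.3% of all probe sets. With all 18 arrays 4 of the 7 were positive. Bub3, a checkpoint protein that is not itself a kinase, had the negative difference and was at the lowest value on 8 of the 17 arrays. Aurka, which matures the spindle poles, spanned 9.57 to 11.29 (median 10.52) in JAK2V617F+ cells and 9.39 to 10.78 (median 10.07) in JAK2V617F- cells. Aurkb, the kinase of the chromosomal passenger complex, spanned 11.67 to 13.04 (median 12.27) in JAK2V617F+ cells and 10.35 to 12.66 (median 12.12) in JAK2V617F- cells. The differences were 0.51 (SE 0.35, 95% CI -0.23 to 1.25) for Aurka and 0.36 (SE 0.32, 95% CI -0.32 to 1.03) for Aurkb. Plk1 was less evenly measured, at 0.69 (SE 0.72, 95% CI -0.83 to 2.21), and the checkpoint kinase Bub1 less still, at 0.29 (SE 0.99, 95% CI -1.79 to 2.37).

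Centromere genes, the biggest family with 21 members, gave 10 of 21 positive differences (50% of all probe sets) and a median of -0.10. Their count with an unadjusted p under 0.05 was 0, against 10.3% of all probe sets. Cenpa, the histone that marks centromeres, spanned 4.39 to 8.88 (median 5.69) in JAK2V617F+ cells and 4.44 to 9.67 (median 8.04) in JAK2V617F- cells, and its difference was -1.46 (SE 0.81, 95% CI -3.17 to 0.25). Within treatments it was -0.63 with TNFR1 BA, -3.7 with TNFR2 BA and -0.05 untreated. Cenpe, a kinetochore motor, was at 1.59 (SE 0.88, 95% CI -0.26 to 3.43), the upper end of all members. Cenpv, another protein named for the centromere, was at 0.74 (SE 0.4, 95% CI -0.1 to 1.59).

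Several members carry the name of a family without its role. Cdc42, a regulator of cell polarity, was near the lowest value in JAK2V617F+ cells, at 2.22 to 4.47 (median 2.5), and spread over 2.44 to 8.33 (median 4.04) in JAK2V617F- cells. Its difference was -2.07 (SE 0.92, 95% CI -4.01 to -0.14), with an adjusted p of 0.449 (limma), and 6 of 8 pairs were lower in JAK2V617F+ cells. Cdk5rap1, a tRNA-modifying enzyme, spanned 4.5 to 7.13 (median 6.4) in JAK2V617F+ cells and 3.98 to 5.8 (median 4.66) in JAK2V617F- cells, a difference of 1.22 (SE 0.64, 95% CI -0.12 to 2.56). The splicing factors Cdc5l and Cdc40 differed by 0.02 (Cdc5l) and -0.57 (Cdc40). Cdc73, of the Paf1 complex, differed by -0.42, the chaperone partner Cdc37 by -1.54 and the mRNA export factor Mcm3ap by 0.43. None of these had an unadjusted p under 0.05 except Cdc42.

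Cell cycle genes that the symbols did not select were counted as well. Of 65 listed, 60 were measured and 0 were called (0.358% of all probe sets), with a median of -0.06. For 5 the unadjusted p was under 0.05 (8.33%, against 10.3% of all probe sets), 1 higher and 4 lower in JAK2V617F+ cells. Kif23, a motor of the central spindle, had a difference of -1.42 (SE 0.34) and the lowest adjusted p of the list, 0.0887 (limma). Top2a, the topoisomerase of chromosome condensation, stood at -1.97 (SE 0.54, adjusted p = 0.16, limma) and Nusap1 at -2.42 (SE 1.04). Anln, the anillin of the contractile ring, stood at 2.21 (SE 0.59, adjusted p = 0.144, limma). Rrm2 and Gmnn, an S phase enzyme and an inhibitor of licensing, were at 0.28 (SE 0.19) and -0.16 (SE 0.30).

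Within single treatments the genotypes were compared on fewer arrays. The genes named here and in the later comparisons of BAs were picked by smallest p, which favors arrays without overlap. The share of all probe sets without overlap was not counted in these comparisons. No member was called in untreated cells (0.0774% of probe sets), with TNFR1 BA (0.0871%) or with TNFR2 BA (0.0387%). Unadjusted p was under 0.05 for 8 members in untreated cells (6.02%, against 7.32% of probe sets), for 5 with TNFR1 BA (3.76%, against 6.21%) and for 8 with TNFR2 BA (6.02%, against 5.63%). The methods' t-test gave 5 members with TNFR1 BA (4.72% of probe sets), 6 with TNFR2 BA (4.24%) and 8 without a BA (4.29%), and 0 after adjustment in each, as among all probe sets (0%). It used 3 pairs with either BA and 2 pairs without one. The genes of smallest p in untreated cells were Cdkn3 and Cdk17 on the lower side and Poldip2, which binds polymerase delta, and Ccnd3 on the higher side. Poldip2 had 12.24 and 10.55 in untreated JAK2V617F+ cells and 9.61, 8.45 and 9.6 in untreated JAK2V617F- cells, without overlap, a difference of 2.17 (SE 0.81, 95% CI 0.47 to 3.87) with an adjusted p of 0.533 (limma).

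With TNFR1 BA, cyclin A2 had the smallest p of the members. Ccna2 had 11.92, 12.32 and 11.79 in JAK2V617F+ cells and 12.82, 12.94 and 12.89 in JAK2V617F- cells. The arrays did not overlap, and the difference was -0.87 (SE 0.29, 95% CI -1.49 to -0.25), with an adjusted p of 0.57 (limma). Cdc37l1, a relative of the chaperone partner Cdc37, differed by -2.87 and Cdk5rap3, which acts in protein UFMylation, by 2.6. With TNFR2 BA the smallest p among the members belonged to Cdk7, with 4.97, 3.88 and 7.25 in JAK2V617F+ cells and 9.01, 10.12 and 11.77 in JAK2V617F- cells. This was a difference of -4.93 (SE 1.66, 95% CI -8.43 to -1.43) without overlap, and the adjusted p was 0.679 (limma). Cenpa followed there with -3.7, and Ccne1 stood at 2.21.

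The effect of each BA asks whether blocking one TNF receptor alters these genes. In JAK2V617F+ cells 0 members were called with TNFR1 BA against untreated (0.00968% of probe sets) and 0 with TNFR2 BA against untreated (0.029%). Unadjusted p was under 0.05 for 9 members with TNFR1 BA (6.77%, against 6.78% of probe sets) and for 5 with TNFR2 BA (3.76%, against 5.26%). The methods' t-test, on 2 pairs each, gave 6 with TNFR1 BA (4.13% of probe sets) and 1 with TNFR2 BA (3.26%), and 0 after adjustment, as among all probe sets (0%). Both comparisons used the same 2 untreated arrays. The median difference of the members was -0.01 with TNFR1 BA, beside 0.10 over all probe sets, and -0.15 with TNFR2 BA, beside 0.06.

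Cdc14b, a phosphatase that counters CDKs, had the smallest p of these members. In JAK2V617F+ cells its signals were 7.77, 6.5 and 8.27 with TNFR1 BA, 2.29, 2.29 and 5.02 with TNFR2 BA, and 3.53 and 2.22 untreated. In JAK2V617F- cells they were 7.33, 5.02 and 8.1 with TNFR1 BA, 7.46, 6.94 and 4.68 with TNFR2 BA, and 5.06, 2.68 and 3.34 untreated. The 3 arrays of JAK2V617F+ cells with TNFR1 BA were above all others of that genotype. Of the untreated JAK2V617F+ arrays, that at 2.22 was at the lowest value and the other was at 3.53. For Cdc14b the difference of TNFR1 BA from untreated was 4.64 (SE 1.42, 95% CI 1.66 to 7.62) in JAK2V617F+ cells, with an adjusted p of 0.475 (limma), and 3.13 (SE 1.27, 95% CI 0.46 to 5.79) in JAK2V617F- cells. TNFR2 BA minus TNFR1 BA in JAK2V617F+ cells gave -4.31 (SE 1.27, 95% CI -6.98 to -1.65), with an adjusted p of 0.917 (limma).

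Cdk1 and its partner cyclin A2, both named for a small p in this comparison, were set side by side between the BAs in JAK2V617F+ cells. Cdk1 had 10.35, 10.54 and 10.36 with TNFR2 BA and 11.66, 11.24 and 11.75 with TNFR1 BA, without overlap, and untreated arrays at 11.25 and 10.07. Ccna2 had 13.09, 12.63 and 12.56 with TNFR2 BA and 11.92, 12.32 and 11.79 with TNFR1 BA, also without overlap. Its untreated arrays, at 12.65 and 12.59, lay within the TNFR2 BA range and above the TNFR1 BA arrays. Cdk1 was thus lower and Ccna2 higher in mean with TNFR2 BA than with TNFR1 BA. The difference, TNFR2 BA minus TNFR1 BA, was -1.14 (SE 0.43, 95% CI -2.04 to -0.23) for Cdk1 and 0.75 (SE 0.29, 95% CI 0.13 to 1.36) for Ccna2, and the adjusted p of both was 1 (limma). Over the members 0 were called between the BAs in JAK2V617F+ cells and 0 in JAK2V617F- cells, as among all probe sets (0%). Unadjusted p was under 0.05 for 7 members in JAK2V617F+ cells (5.26%, against 4.37% of probe sets) and 3 in JAK2V617F- cells (2.26%, against 3.7%), and the methods' t-test gave 9 in JAK2V617F+ cells (3.92% of probe sets) and 5 in JAK2V617F- cells (3.97%), with 0 after adjustment among members and all probe sets.

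In JAK2V617F- cells 0 members were called with either BA against untreated, as among all probe sets (0%). With TNFR1 BA 7 members had an unadjusted p under 0.05 (5.26%, against 3.73% of probe sets), and with TNFR2 BA 4 did (3.01%, against 2.47%). The methods' t-test gave 8 with TNFR1 BA (4.18% of probe sets) and 4 with TNFR2 BA (3.75%), and 0 after adjustment, as among all probe sets (0%). Cdc5l, the splicing factor, had 9.61, 9.54 and 9.02 with TNFR1 BA, 11.45, 11.18 and 10.66 with TNFR2 BA and 10.89, 10.86 and 10.65 untreated, so the TNFR1 BA arrays lay below the rest. The difference of TNFR1 BA from untreated was -1.41 (SE 0.59, 95% CI -2.64 to -0.17) for Cdc5l. Mcm10, which helps to activate the helicase, had 9.94, 10.52 and 9.57 with TNFR2 BA and 11.72, 11.48 and 10.88 untreated, without overlap, a difference of -1.35 (SE 0.54, 95% CI -2.48 to -0.22). Their adjusted p was 1 (limma).

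Whether a BA acted differently on the 2 genotypes was fitted as an interaction. It gave 0 members called for TNFR1 BA and 0 for TNFR2 BA, as among all probe sets (0%), with 6 members (4.51%, against 5.22% of probe sets) and 4 members (3.01%, against 3.83%) at an unadjusted p under 0.05. The methods' t-test, on 2 pairs each, gave 8 members for TNFR1 BA (4.81% of probe sets) and 3 for TNFR2 BA (4.19%), and 0 after adjustment, as among all probe sets (0%). The smallest adjusted p of a member was 0.918. Cdkn3 had the smallest p in both, at 4.95 (SE 1.64, 95% CI 1.5 to 8.4) for TNFR1 BA and 4.65 (SE 1.64, 95% CI 1.2 to 8.1) for TNFR2 BA. Without untreated JAK2V617F+ replicate 2 these were 2.39 for TNFR1 BA and 2.09 for TNFR2 BA. Pole3, a histone-fold subunit of polymerase epsilon, followed at 3.56 (SE 1.2, 95% CI 1.04 to 6.09) for TNFR1 BA and 3.27 (SE 1.2, 95% CI 0.74 to 5.8) for TNFR2 BA. Both BA effects in JAK2V617F+ cells rest on the same 2 untreated arrays.

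Of these, untreated JAK2V617F+ replicate 2 stood low for several members. Of the 122 members with a single lowest array among the 17, 20 had it there (16.4%), beside 12.6% of all probe sets. JAK2V617F- replicate 3 with TNFR1 BA also held 20, beside 8.99%. Untreated JAK2V617F+ replicate 2 held the highest value as well for 14 members. Cdkn3 was at 4.1 there and at 9.22 on replicate 1, and on the other 15 arrays between 8.10 and 11.49. Cenpk, a subunit of the inner kinetochore, was at 2.23 there and at 11.61 on replicate 1, and on the other 15 arrays no lower than 8.82. Cdk17 was at 4.72 on replicate 2 and 9.99 on replicate 1, and the Cip/Kip inhibitor gene Cdkn1b at 5.08 on replicate 2 and 10.08 on replicate 1. The 2 untreated arrays of JAK2V617F+ cells thus disagreed by more than 4 log2 units for each of these genes, and the excluded array had 9.35 for Cdkn3, 11.03 for Cenpk, 9.85 for Cdk17 and 3.8 for Cdkn1b.

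Leaving out untreated JAK2V617F+ replicate 1, which makes replicate 2 the lone array of its group, with its spread taken from the other groups, turned these genes into calls. In untreated cells the difference between the genotypes was then -8.88 for Cenpk (adjusted p = 0.0013), -5.73 for Cdk17 (adjusted p = 0.0136) and -5.99 for Cdkn3 (adjusted p = 0.0188, all limma), and as a mean over treatments it was -2.77 for Cenpk and -2.26 for Cdk17. TNFR1 BA minus untreated in JAK2V617F+ cells then gave 5.36 for Cdkn1b (adjusted p = 0.0411, limma). Leaving out replicate 2 in its place gave differences between the genotypes in untreated cells of 0.5 for Cenpk, -0.46 for Cdk17, -0.86 for Cdkn3 and 0.09 for Cdkn1b, and TNFR1 BA minus untreated of 0.36 for Cdkn1b, none of them called. With both arrays in the fit, Cenpk was -4.19 (SE 1.68, 95% CI -7.73 to -0.66) in untreated cells with an adjusted p of 0.584 (limma). Together with Ccnd1, these were the 5 members called in at least 1 of the 20 fits that left out arrays.

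**Figure D4:**
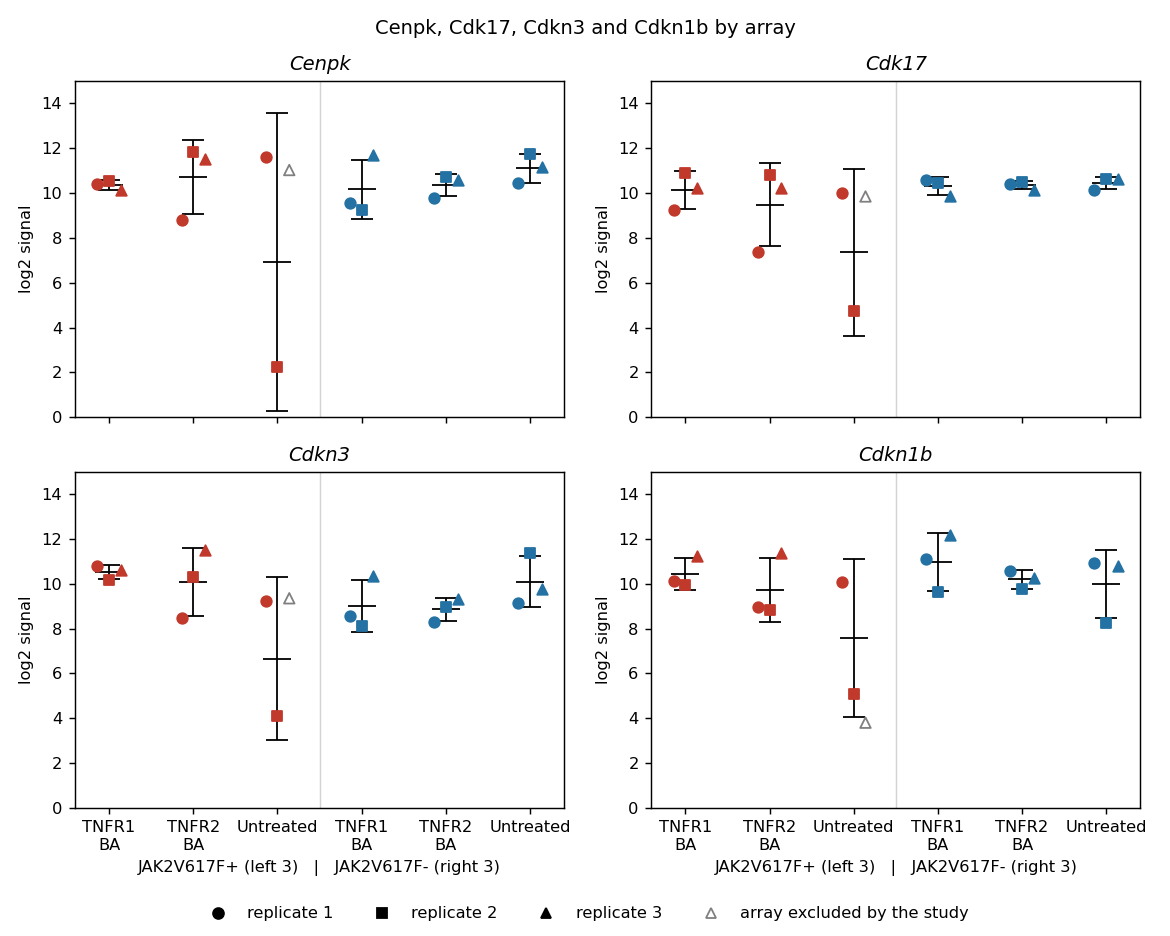
Log2 signals (vertical axis) of Cenpk, Cdk17, Cdkn3 and Cdkn1b are shown for each array by group, JAK2V617F+ in red on the left and JAK2V617F- in blue on the right, with symbols for the replicate number, horizontal bars for group means and whiskers for the SD; the open grey triangle is the excluded array. The square of untreated JAK2V617F+ cells, replicate 2, lies at 2.23, 4.72, 4.10 and 5.08 in the 4 panels, and replicate 1 of that group lies at 9.22 or above in each.

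The spread between arrays set the limit for the rest of the members. The median SD within groups was 1.27 over the members, from 0.30 for Ccna2 to 3.16 for Pole2, beside 1.45 over all probe sets. It was under 1 for 53 members (39.8%, against 27.4% of probe sets). For 43 members, at least 1 group held arrays more than 5 log2 units apart (32.3%, against 38.2% of probe sets), and 12 members had a value at the lowest signal. By family, the median SD was 0.74 for MCM genes, 0.87 for polymerase and RFC genes, 0.91 for cyclins, 1.46 for CDKs and for CDK inhibitors, and 1.6 for ORC and CENP genes. The median half-width of the 95% CI was 1.34 for the mean over treatments and 2.5 for either BA against untreated in JAK2V617F+ cells.

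**Figure D5:**
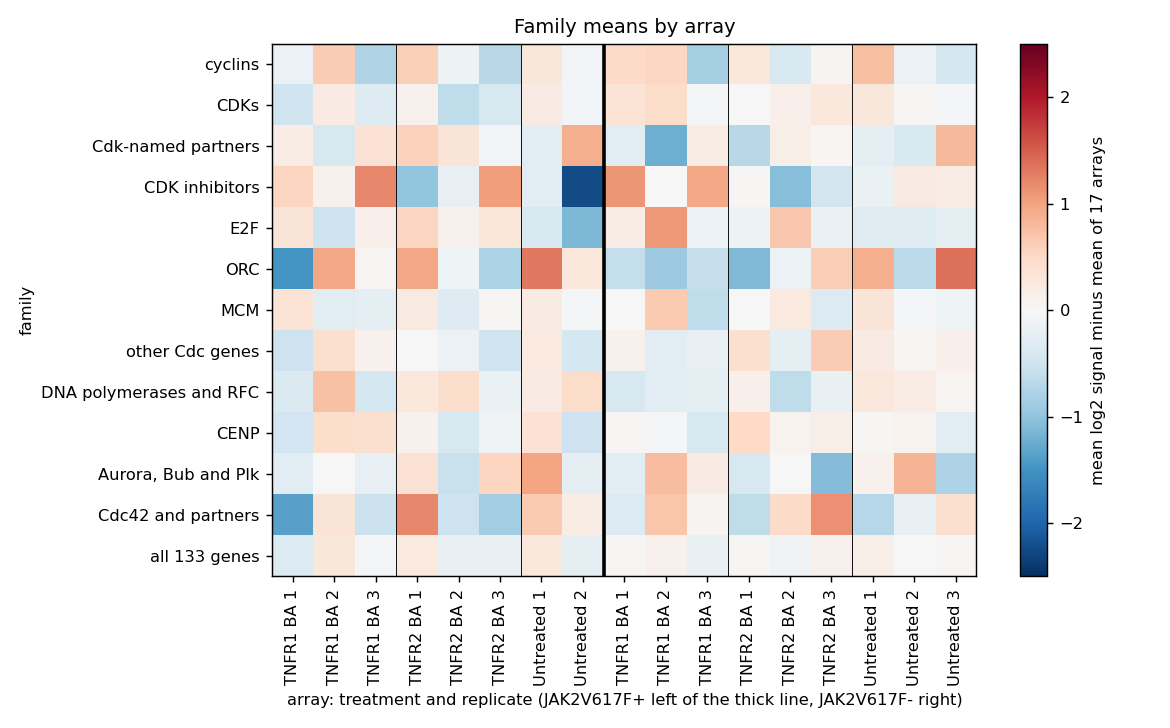
Colors give the mean log2 signal of each family (rows) on each of the 17 arrays (columns, JAK2V617F+ left of the thick line and JAK2V617F- right) minus the family's mean over the 17 arrays, red for above and blue for below. The row of all 133 genes stays near 0 on every array, from -0.34 to 0.28, and the CDK inhibitors of untreated JAK2V617F+ replicate 2 are the lowest cell.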

How the data were processed

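Log2 signals were deposited by the authors for 18 Affymetrix mouse arrays, 1 value per probe set; the submitters' processing notes name Affymetrix Expression Console, and RNA was amplified with the NuGEN Ovation Pico WTA system. How the signals were normalized was not given in the sources used here, and they were used as deposited, with no pseudocount. They carry no depth or detection call, so the number of arrays limits the precision. The authors' exclusion of untreated JAK2V617F+ replicate 3 was followed.

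Symbols came from the platform annotation, and all 133 members matched a GRCm38.p6 gene table by Entrez ID. Group means were fitted with limma 3.58.1 in R 4.3.3 (variance trend, Benjamini-Hochberg), which was tested on simulated data. The members, families, lists and named genes were chosen with earlier results of these data known. Named genes were the 6 of smallest unadjusted p per direction in the mean over treatments, 2 per direction in each other comparison, and a textbook set of 40 genes, of which 37 were measured. The replicate number was read as the experiment, since the study describes 3 experiments with split marrow. Mean correlations of deviations from group means were 0.008, 0.071 and 0.144 for replicates 1, 2 and 3 and -0.033 between different numbers of other groups, and 14 of 17 arrays were closest to their own number. Alternatives were all 18 arrays, a replicate block, only the compared groups, quantile normalization, a mean log2 signal of at least 6, no variance trend, array weights, a paired t-test as in the study's methods, the members without name-only matches, and leaving out arrays.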

Additional observations from a re-analysis of the deposited data

How the results depend on the processing

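The count of called members was 0 in the 12 comparisons under every setting that kept the arrays, namely all 18 arrays, a replicate block, only the compared groups, quantile normalization, the filter on dim probe sets, no variance trend, array weights and the methods' t-test. The fit with the replicate block called 0 members in each comparison and changed no call. When single arrays or replicate numbers were left out, the count ranged from 0 to 2 in the mean over treatments, from 0 to 3 between genotypes in untreated cells, from 0 to 4 for TNFR1 BA and from 0 to 2 for TNFR2 BA against untreated in JAK2V617F+ cells, and from 0 to 2 and from 0 to 1 for the TNFR1 BA and TNFR2 BA interactions. The calls needed untreated JAK2V617F+ replicate 1 or all replicates 1 to be left out, except that of Ccnd1. The median difference of the members in the mean over treatments was 0.04; it was -0.01 with all 18 arrays, -0.02 after quantile normalization, and from -0.02 to 0.12 when arrays were left out. No named gene turned its direction with a call. Only the compared groups gave no separate fit for the mean over treatments, which uses all groups. With 2 or 3 arrays per group and a median CI half-width of 1.34 log2 units, smaller differences of most members could not be resolved, and signals at the lowest value of 2.22 bound a difference from 1 side only.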

Other observations

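The excluded array, untreated JAK2V617F+ replicate 3, had a mean log2 signal of 7.69 over the 133 members, below the range of 8.08 to 8.70 of the JAK2V617F+ arrays used. Its Ccnd1 signal was 4.69, its Ccnd3 signal 11.81 and its Ccne1 signal 11.33, each within the range of the JAK2V617F+ arrays used. Bub1b was at 3.98 and Cdc27 at 2.5 on it, below all 17 other arrays.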
